A study of Mus musculus with 10 samples.

Results

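Collagen genes were followed in bulk RNA-seq libraries of subcutaneous tumours of MC38, a cell line derived from a mouse adenocarcinoma of the colon. The members were all genes of the deposited table whose symbol is Col, digits, the letter a and digits, which gave 43 of 18223 genes. The rule uses symbols and no measured value, although collagens were picked as a topic with earlier results of these data known. The 10 libraries form 2 groups of 5: high tumour burden (HTB), whose treatment label gives 2000000 over 14 days, and low tumour burden (LTB), whose label gives 500000 over 14 days, both taken to be a dose of injected MC38 cells followed by a period of growth. No label gives a genotype, a mouse strain, an age or a measured tumour size, and the labels do not say whether each library is a different animal, so every p measures the spread between these libraries. The tissue was whole tumour, so fewer cells of a type and less RNA per cell cannot be told apart.

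Collagens are secreted or membrane proteins built of alpha chains that wind into a triple helix, which needs glycine at regular positions and hydroxylated prolines to stay folded. Fibrillar collagens such as types I, III and V form the fibrils of connective tissue, and in tumours they are made mainly by fibroblasts and by cancer cells with mesenchymal traits. Type IV collagen forms the sheet of the basement membrane under epithelium and around vessels, fat cells and muscle fibres. The other families join these structures together: beaded filaments (type VI), collagens that sit on fibrils (FACIT), short-chain networks (type VIII), multiplexins of the basement membrane zone (types XV and XVIII), anchoring fibrils (type VII) and transmembrane collagens. By class the 43 genes were 11 fibrillar, 6 type IV, 2 multiplexin, 1 anchoring fibril, 7 beaded filament, 8 FACIT, 3 short-chain network and 4 transmembrane genes, and 1 other gene, Col26a1.

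HTB libraries held 24884292 to 27185168 estimated reads, against 23070917 to 26880191 for LTB libraries. HTB replicate 2 stood apart from all other libraries in 6 skeletal muscle markers (Acta1, Ckm, Myh4, Tnnt3, Atp2a1 and Mylpf), whose summed level was 13202 CPM (reads per 1000000 scaled reads, the unit used throughout) there, 7.36 to 48.0 CPM in HTB replicates 1, 3, 4 and 5, and 4.01 to 5.91 CPM in LTB. Its 6 adipocyte markers (Adipoq, Plin1, Cidec, Lep, Cfd and Retn) summed to 3354 CPM, against at most 0.362 CPM in HTB replicates 1, 3, 4 and 5, and 0.0389 to 12.3 CPM in LTB. The muscle sum of every other HTB library also lay above every LTB library. Of 4 muscle markers tested as described below, 3 passed as higher in HTB with all libraries and 2 without HTB replicate 2. The shares of all genes called higher were 3.91% and 9.77%. Leaving out HTB replicate 2 thus did not remove the group difference in muscle markers. Of 6 epithelial markers, Krt8, Krt18, Krt19 and Cldn7 stayed at or below 0.207 CPM in each of the 10 libraries and Epcam at 0.166 to 0.952 CPM in HTB, against 0.467 to 1.82 CPM across LTB. Defining markers of an epithelial cell were thus low in tumours of a line known as a colon adenocarcinoma, and the epithelial cadherin gene Cdh1 stood at 2.07 to 5.60 CPM in HTB, against 5.53 to 15.3 CPM across LTB.

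Collagen transcripts made up 1.07% ± 0.092 of the scaled reads in HTB and 0.871% ± 0.144 in LTB (SD, n = 5 each). Summed over the 43 genes, the level was 11957, 10100.3, 10809, 9502 and 10913 CPM in HTB replicates 1 to 5, against 6317, 10113, 8600, 9162 and 9347 CPM in LTB replicates 1 to 5. The groups overlapped, and the lowest sum belonged to LTB replicate 1. Col3a1 alone held 43.4% to 61.6% of all collagen reads in HTB and 47.3% to 56.3% in LTB. Divided by mRNA length, Col3a1 stood at 1059 CPM per kb in HTB and 829 CPM per kb in LTB, above every other member in both groups. Next by level per kb over all libraries came Col6a1, Col1a2, Col6a2, Col16a1 and Col1a1, the last at 58.9 ± 50.9 CPM per kb in HTB and 73.7 ± 18.5 in LTB.

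Of the 43 genes, 33 had enough reads to be tested, and 3 of these passed: the multiplexin Col18a1 was higher, and the FACIT Col12a1 and the type VI chain Col6a3 were lower in HTB. This is 9.09% of the tested collagen genes, against 11.4% of all 13469 genes tested (3.91% higher and 7.51% lower), so the share was near the background. The median log2 fold change, HTB over LTB, was 0.02 over the 33 collagen genes and 0.02 over all genes tested, with 17 collagen genes above 0 and 16 below. In the fit without HTB replicate 2, 9 collagen genes passed, or 27.3%, against a background of 22.4% (9.77% higher and 12.7% lower): Col6a1, Col6a2, Col18a1 and Col4a5 were higher (4), and Col12a1, Col6a3, Col15a1, Col24a1 and Col8a2 lower (5). The untested 10 genes had between 5 and 63 reads over all 10 libraries: Col11a1, Col4a3, Col4a6, Col6a5, Col6a6, Col19a1, Col9a2, Col10a1, Col25a1 and Col26a1.

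By class, the median log2 fold change of the tested genes was -0.09 for 10 fibrillar, 0.70 for 4 type IV, 0.04 for 5 beaded filament, -0.03 for 6 FACIT, -0.39 for 3 transmembrane, -0.60 for 2 short-chain and 0.18 for 2 multiplexin genes. Without HTB replicate 2 these medians were -0.28, 0.26, -0.38, -0.33, -0.25, -1.26 and -0.47, so those of the beaded filament and multiplexin genes changed sign. In that fit the median was -0.17 over all tested collagen genes and -0.0063 over all genes tested. Fibrillar genes held 70.6% ± 2.04 of all collagen reads in HTB and 72.4% ± 0.946 in LTB, and beaded filament genes 17.1% ± 3.11 in HTB and 15.6% ± 0.846 in LTB. Short-chain genes held 1.44% ± 0.17 in HTB and 2.02% ± 0.393 in LTB, shares of a collagen total that was larger in HTB, and their summed level overlapped between the groups, at 133 to 163 CPM in HTB, against 160.6 to 183 CPM across LTB.

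**Figure D1:**
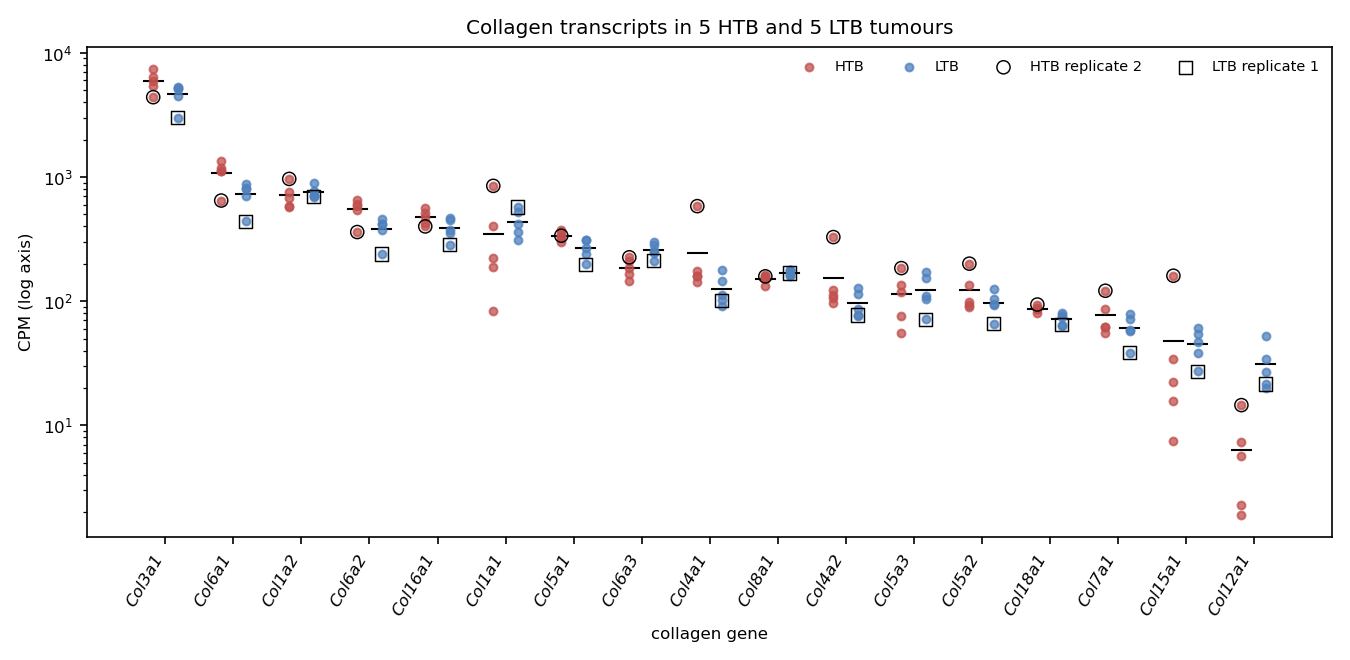
CPM (log axis) of the 17 collagen genes that passed the test or averaged at least 20 CPM, with HTB libraries in red, LTB libraries in blue and a bar at each group mean. Circles mark HTB replicate 2, which is highest for Col1a1, Col1a2, Col4a1, Col4a2, Col5a2, Col5a3, Col7a1, Col15a1 and Col18a1. Squares mark LTB replicate 1, which is lowest for Col3a1, Col5a1, Col5a2, Col6a1, Col6a2, Col7a1 and Col16a1.

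Among the fibrillar genes, none of 10 tested passed with all libraries. Col3a1, the homotrimeric collagen of distensible tissue, had 7361, 4388, 5885, 5404 and 6432 CPM in HTB, against 2991, 5251, 4459, 5118 and 5258 CPM in LTB. Of the HTB libraries, 4 lay above every LTB library, and HTB replicate 2 lay below LTB replicates 2, 3, 4 and 5. The log2 fold change was 0.35 ± 0.17 (SE; adjusted p = 0.202 by the quasi-likelihood test of edgeR, adjusted over all genes tested as everywhere below unless another test is named), and it passed without HTB replicate 2 and LTB replicate 1 together, at 0.32 (adjusted p = 0.0423), where 9.26% of all genes tested were called higher.

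Type I collagen, the main protein of stiff fibrils, is a heterotrimer of the Col1a1 and Col1a2 products. Col1a1 ranged more within HTB than between the groups: 221, 848, 404, 189.8 and 82.6 CPM in HTB replicates 1 to 5, against 573, 522, 421, 310.0 and 358 CPM in LTB. HTB replicate 2 exceeded every LTB library, and HTB replicates 1, 4 and 5 lay below every LTB library. The log2 fold change was -0.32 ± 0.50 (adjusted p = 0.702), and -0.96 ± 0.37 without HTB replicate 2 (adjusted p = 0.0821). Col1a2 moved less, at 673, 965, 758, 569.5 and 587 CPM in HTB and 692, 898, 765, 718 and 697 CPM in LTB, a log2 fold change of -0.09 ± 0.14 (adjusted p = 0.724). Col1a2 reads outnumbered Col1a1 reads by 1.14 to 7.10 times in HTB and 1.21 to 2.32 times in LTB.

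Type V collagen sits inside type I fibrils and sets their width. Its chain Col5a1 averaged 336 ± 27.3 CPM in HTB and 266 ± 47.6 CPM in LTB (SD, n = 5 each), with a log2 fold change of 0.34 ± 0.12 (adjusted p = 0.0944). Col5a2 averaged 124 ± 46.4 and Col5a3 114 ± 50.9 CPM in HTB, against 96.8 ± 21.7 and 122 ± 40.7 CPM in LTB, with adjusted p of 0.344 and 0.859. The cartilage collagen Col2a1 stayed at 0.217 to 0.692 CPM in HTB, against 0.385 to 0.764 CPM across LTB, and Col11a2, another chain known from cartilage, at 6.27 to 9.69 and 7.03 to 9.96 CPM in HTB and LTB. Col24a1, a minor fibrillar collagen, had 0.146, 1.12, 0.293, 0.181 and 0.0366 CPM in HTB, against 0.985, 0.623, 0.684, 0.573 and 1.38 CPM in LTB. Its log2 fold change was -1.27 ± 0.66 (adjusted p = 0.228), and without HTB replicate 2, the HTB library inside the LTB range, it fell by 2.33 on the log2 scale (adjusted p = 0.00862).

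**Figure D2:**
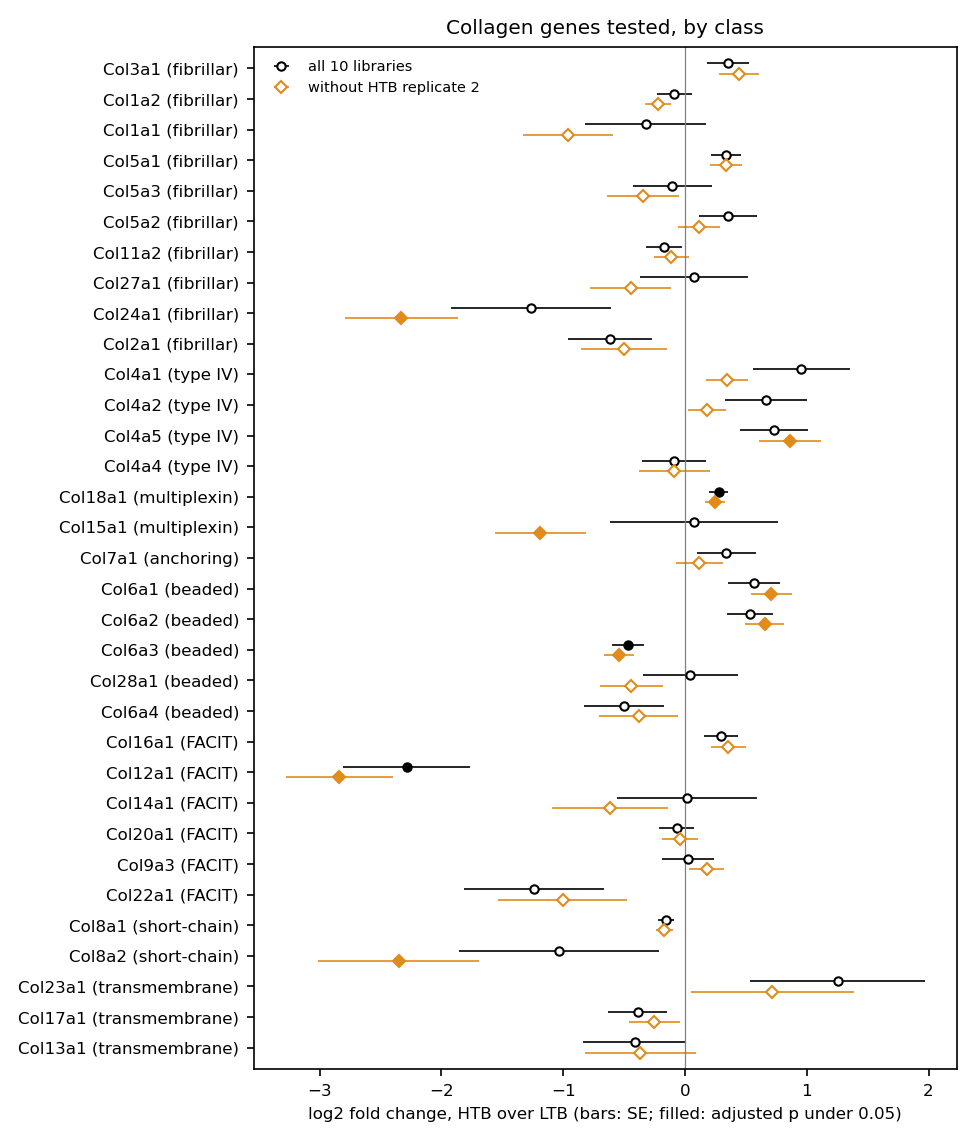
Log2 fold changes, HTB over LTB, with SE for the 33 tested collagen genes by class, in all 10 libraries (black circles) and without HTB replicate 2 (orange diamonds). Filled symbols passed the test: 3 genes with all libraries and 9 without HTB replicate 2.

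The type IV genes are arranged in head-to-head pairs, and Col4a1 and Col4a2, whose chains form the most widespread basement membrane heterotrimer, are the abundant pair. In GRCm38 they lie on chromosome 8, Col4a1 (NCBI gene 12826) from 11187755 to 11312826 and Col4a2 (12827) from 11312805 to 11449287. RefSeq places them on opposite strands with starts that overlap by 22 bases, while the deposited table lists both on the plus strand. No source used here gives the strand setting of the counting, and reads of the overlap may go to either gene. The windows from 250 bases before to 50 bases after each start share 78 bases. Both are shown from RefSeq (GRCm38.p6), since the windows overlap, for Col4a1 at chr8:11312777-11313076 on the minus strand and Col4a2 at chr8:11312555-11312854 on the plus strand. Capitals mark matches on either strand to CCAAT (the core of the CCAAT box), GGGCGG (the GC box), TATAAA (the core of the TATA box) or TGANTCA (the core of AP-1 sites).
Col4a1: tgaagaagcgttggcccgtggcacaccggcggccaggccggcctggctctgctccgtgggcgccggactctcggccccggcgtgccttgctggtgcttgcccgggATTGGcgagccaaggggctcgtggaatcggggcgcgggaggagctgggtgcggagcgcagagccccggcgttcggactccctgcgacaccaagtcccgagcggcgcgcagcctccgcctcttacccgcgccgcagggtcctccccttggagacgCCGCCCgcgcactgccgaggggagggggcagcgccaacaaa
Col4a2: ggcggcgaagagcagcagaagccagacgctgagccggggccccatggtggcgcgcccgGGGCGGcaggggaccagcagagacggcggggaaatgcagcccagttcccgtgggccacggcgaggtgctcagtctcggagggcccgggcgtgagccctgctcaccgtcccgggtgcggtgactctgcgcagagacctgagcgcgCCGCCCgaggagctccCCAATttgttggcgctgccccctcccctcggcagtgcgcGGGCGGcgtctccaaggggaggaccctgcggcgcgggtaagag
Each window held 1 match to CCAAT. For GGGCGG the Col4a1 window held 1 match and the Col4a2 window 3, and neither window held TATAAA or a match to the AP-1 core. The GGGCGG match of Col4a1 lies in the shared bases and is the same site as 1 of the 3 in the Col4a2 window. Matches that touch or overlap are merged in the capitals. Of 32851 promoter windows of the same length in the table, 37.4% held CCAAT, 35.7% GGGCGG, 13.6% TATAAA and 7.81% TGANTCA. Of the 34 collagen genes matched by symbol, the first window listed held them in 35.3%, 64.7%, 14.7% and 2.94%.

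None of the 4 tested type IV genes passed with all libraries. Col4a1 had 144, 582, 176, 161 and 159 CPM in HTB, against 102, 147, 178, 111 and 92.3 CPM in LTB. HTB replicate 2 stood at more than any other library, and the other HTB libraries overlapped LTB. The log2 fold change was 0.96 ± 0.40 (adjusted p = 0.141), and 0.35 ± 0.17 without HTB replicate 2 (adjusted p = 0.17). Col4a2 followed the same order in part, with 97.4, 328, 122, 107 and 112 CPM in HTB and 77.5, 114, 129, 86.2 and 76.5 CPM in LTB (log2 fold change 0.67 ± 0.34, adjusted p = 0.216; 0.18 without HTB replicate 2, adjusted p = 0.407). Beside these values, 6 endothelial markers (Pecam1, Cdh5, Kdr, Tek, Tie1 and Egfl7) summed to 325 CPM in HTB replicate 2, 99.0 to 112 CPM in HTB replicates 1, 3, 4 and 5, and 76.2 to 127 CPM in LTB, and the muscle and adipocyte markers were highest in the same library. Their part in the type IV levels was not tested.

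Col4a5 (chromosome X), a chain of the basement membrane of kidney, lung and smooth muscle, ran the other way among the HTB libraries. It had 25.1, 11.9, 18.01, 18.8 and 22.3 CPM in HTB, against 5.41, 16.1, 11.1, 14.7 and 10.6 CPM in LTB. HTB replicate 2 was its lowest HTB library and the other HTB libraries lay above every LTB library. Its log2 fold change was 0.73 ± 0.28 (adjusted p = 0.113), and 0.86 ± 0.26 without HTB replicate 2 (adjusted p = 0.0372). Col4a4 stood at 0.329 to 0.688 CPM in HTB, against 0.350 to 0.556 CPM across LTB, and its pair partner Col4a3 and the Col4a5 neighbour Col4a6 had 53 and 9 reads in all.

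Of the multiplexins, Col18a1 rose, and Col15a1 passed, as lower in HTB, in the fit without HTB replicate 2. Col18a1, whose product carries the anti-angiogenic fragment endostatin at its end, had 86.0, 94.0, 89.0, 86.8 and 79.9 CPM in HTB, against 64.6, 74.9, 77.4, 79.8 and 63.0 CPM in LTB. No HTB library overlapped LTB, although HTB replicate 5 and LTB replicate 4 differed by little. Libraries that do not overlap were found for 2 of 33 collagen genes (6.06%), and for 11.7% of all genes tested. The log2 fold change was 0.28 ± 0.08 (adjusted p = 0.0468). The call was lost when any of HTB replicates 1, 3, 4 or 5 or LTB replicates 1, 2, 3 or 5 was left out, with adjusted p between 0.0547 and 0.103. Col15a1, found in basement membrane zones of muscle, fat and vessels, had 22.4, 160.3, 34.3, 15.7 and 7.44 CPM in HTB, against 27.2, 60.6, 54.7, 38.0 and 47.1 CPM in LTB. With all libraries its log2 fold change was 0.08 ± 0.69 (adjusted p = 0.954), and without HTB replicate 2 it fell by 1.19 ± 0.37 on the log2 scale (adjusted p = 0.045). The anchoring fibril gene Col7a1 averaged 77.3 ± 27.2 CPM in HTB and 61.2 ± 15.7 CPM in LTB (adjusted p = 0.379).

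**Figure D3:**
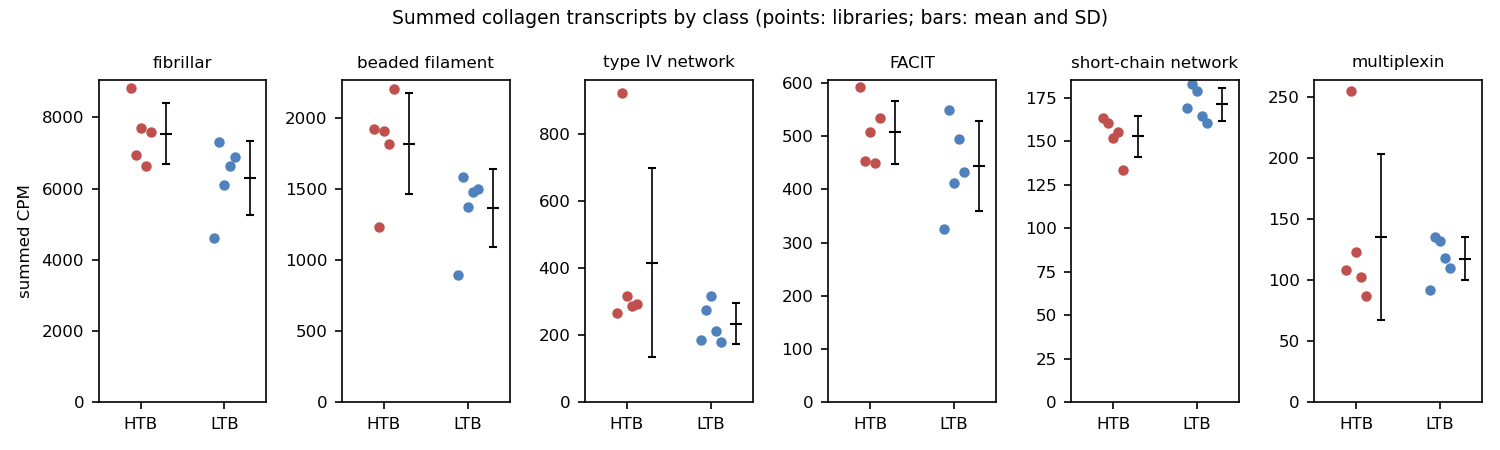
Summed CPM of 6 collagen classes in each library, HTB in red left of LTB in blue, with mean and SD beside the points, on axes that start at 0. The type IV sum of HTB replicate 2 was 923 CPM, where the other HTB libraries had 267 to 317 CPM and LTB had 180.0 to 319 CPM.

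Type VI collagen forms beaded filaments around cells from a heterotrimer of the Col6a1, Col6a2 and Col6a3 products, and its chains parted in direction. Col6a1 had 1126, 646, 1177, 1116 and 1340.0 CPM in HTB, against 440.2, 877, 703, 821 and 803 CPM in LTB, and Col6a2 had 610.0, 360.3, 588, 537 and 652 CPM in HTB, against 239.9, 456, 371, 416 and 417 CPM in LTB. For both genes HTB replicate 2 was the lowest HTB library and lay inside the LTB range, LTB replicate 1 was the lowest of all, and the other HTB libraries lay above every LTB library. With all libraries the log2 fold changes were 0.57 ± 0.21 for Col6a1 and 0.53 ± 0.19 for Col6a2 (adjusted p = 0.109 and adjusted p = 0.0941). In the fit that left out HTB replicate 2 both rose, by 0.71 ± 0.17 and 0.65 ± 0.16 (adjusted p = 0.0167 and adjusted p = 0.0171). In the fit that left out only LTB replicate 1 neither passed, at 0.43 ± 0.18 and 0.40 ± 0.16 (adjusted p = 0.175 and adjusted p = 0.146). That fit called 2.17% of all genes tested higher.

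Col6a3, the chain that carries the endotrophin fragment, was lower in HTB. It had 185, 226, 144, 165 and 209.8 CPM in HTB, against 211, 251.6, 298, 242 and 281 CPM in LTB, and HTB replicate 2 was the only HTB library above the lowest LTB library. The log2 fold change was -0.47 ± 0.13 (adjusted p = 0.0446). Leaving out HTB replicates 1, 3, 4 or 5 or LTB replicates 2, 3, 4 or 5 took the adjusted p to between 0.058 and 0.108, and leaving out HTB replicate 2 gave -0.54 ± 0.12 (adjusted p = 0.0142). Reads of Col6a3 per read of Col6a1 were 0.164, 0.349, 0.123, 0.148 and 0.157 in HTB and 0.480, 0.287, 0.424, 0.295 and 0.350 in LTB, a description with no test, since this ratio was chosen after the values were seen. Every HTB library other than replicate 2 lay below every LTB library in that ratio.

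The windows around the starts of Col6a1 and Col6a3, chains that went in different directions without HTB replicate 2, are shown with the same marking. They are from RefSeq (GRCm38.p6), both on the minus strand, for Col6a1 at chr10:76725995-76726294 and for Col6a3 at chr1:90843922-90844221.
Col6a1: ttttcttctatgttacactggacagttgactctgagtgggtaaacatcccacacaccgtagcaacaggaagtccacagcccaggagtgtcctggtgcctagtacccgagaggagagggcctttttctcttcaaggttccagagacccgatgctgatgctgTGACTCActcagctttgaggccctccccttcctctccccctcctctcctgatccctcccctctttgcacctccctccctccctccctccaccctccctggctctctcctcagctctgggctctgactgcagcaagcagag
Col6a3: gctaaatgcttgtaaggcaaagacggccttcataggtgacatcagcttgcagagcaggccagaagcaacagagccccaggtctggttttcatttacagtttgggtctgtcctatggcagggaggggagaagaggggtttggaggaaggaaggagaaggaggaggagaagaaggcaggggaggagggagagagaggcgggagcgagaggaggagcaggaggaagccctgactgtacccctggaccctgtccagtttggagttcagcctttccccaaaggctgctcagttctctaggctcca
The Col6a1 window held 1 match to TGANTCA, and no match to any of the 4 motifs was found in the Col6a3 window. The remaining beaded filament genes were low: Col28a1 stood at 0.947 to 4.03 CPM in HTB, against 1.25 to 2.65 CPM across LTB, and Col6a4 at 0.871 to 2.11 CPM in HTB, against 1.14 to 2.83 CPM across LTB.

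Col12a1 had the largest fall of the 33 tested collagen genes. It encodes a FACIT collagen that coats type I fibrils in tissues under load and is made by activated fibroblasts. On chromosome 9 from 79598987 to 79719599 (GRCm38; NCBI gene 12816), it had 5.68, 14.6, 7.39, 2.28 and 1.90 CPM in HTB, against 21.5, 52.4, 26.8, 20.1 and 34.0 CPM in LTB. Every HTB library lay below every LTB library. The log2 fold change was -2.29 ± 0.52 (adjusted p = 0.0215), and -2.84 ± 0.44 without HTB replicate 2 (adjusted p = 0.00354). Without HTB replicate 3 it missed the threshold at -2.35 (adjusted p = 0.0523). Beside it, 6 skin epidermis markers (Krt1, Krt5, Krt10, Krt14, Krt15 and Lor) summed to 4.42 to 12.4 CPM in HTB, against 32.0 to 51.7 CPM across LTB, with no overlap. Krt14 made up most of the LTB sum and fell by 3.19 on the log2 scale (adjusted p = 0.00569), Krt10, the other marker tested, did not pass, and Krt1, Krt5 and Krt15 had no reads in HTB. Their part in the Col12a1 value was not tested.

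The other FACIT genes did not pass. Col16a1, the most abundant of the class, had 565, 400.0, 472, 428 and 512 CPM in HTB, against 285, 466, 352, 452 and 377 CPM in LTB (log2 fold change 0.30 ± 0.14, adjusted p = 0.188). Col14a1, which like Col12a1 decorates fibrils, averaged 11.1 ± 9.93 CPM in HTB and 11.0 ± 5.35 CPM in LTB. Col20a1 and Col9a3 stood at 9.46 ± 1.36 and 4.16 ± 1.21 CPM in HTB and 9.92 ± 1.58 and 4.09 ± 0.296 CPM in LTB, and the deposited counts of Col9a3 hold fractional values, so its reads may be shared with other genes. Col22a1, known from muscle-tendon junctions, stood at 0.0732 to 0.733 CPM in HTB, against 0.530 to 0.890 CPM across LTB (log2 fold change -1.24 ± 0.57, adjusted p = 0.182). It had 0.083 CPM in HTB replicate 2, where muscle markers were at their highest.

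Among the short-chain collagens, Col8a1, a network collagen of vessel walls, stood at 163, 159, 151, 155 and 133 CPM in HTB and 169, 179.9, 178, 163 and 160.0 CPM in LTB (log2 fold change -0.16 ± 0.07, adjusted p = 0.141). Col8a2 was far lower, at 0.0733 to 2.07 CPM in HTB, against 0.379 to 2.76 CPM across LTB. Its log2 fold change was -1.04 ± 0.82 (adjusted p = 0.428), and without HTB replicate 2 it fell by 2.35 on the log2 scale (adjusted p = 0.0303). The transmembrane genes Col23a1, Col13a1 and Col17a1, the last a part of hemidesmosomes, did not pass. Col23a1 had 1.64, 8.47, 6.77, 1.20 and 0.769 CPM in HTB, against 1.06, 3.58, 1.75, 0.764 and 0.712 CPM in LTB, with the highest values in HTB replicates 2 and 3 (log2 fold change 1.25 ± 0.72, adjusted p = 0.272).

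Ratios between chains, which do not depend on how libraries are scaled, were compared by an exact two-sided permutation test of the group labels over the libraries, adjusted over 5 ratios. The log2 ratio of Col4a1 to Col1a1, the leading basement membrane chain over a chain of the main fibril, averaged -0.33 ± 0.79 in HTB and -1.80 ± 0.48 in LTB (SD, n = 5 each). The ratio was higher in every HTB library than in any LTB library, although HTB replicate 3 and LTB replicate 3 differed by little, at -1.20 and -1.24. The difference of means was 1.47 on the log2 scale (exact permutation p = 0.00794, the smallest the design can give, and adjusted p = 0.0198). Without HTB replicate 2 the difference was 1.52 (exact permutation test, adjusted p = 0.0397). Col1a1 was the only fibrillar chain set against Col4a1. In the edgeR fit without HTB replicate 2, log2 fold changes were 0.35 for Col4a1, 0.44 for Col3a1, -0.22 for Col1a2 and -0.96 for Col1a1, and none passed. The difference thus describes Col4a1 against Col1a1, not against fibrillar genes as a class. The 2 chains of the head-to-head pair also shifted against each other. The log2 ratio of Col4a2 to Col4a1 averaged -0.60 ± 0.13 in HTB and -0.37 ± 0.07 in LTB, with no overlap. HTB replicate 5 and LTB replicate 3 came closest, at -0.51 and -0.47. The difference of means was -0.23 (exact permutation p = 0.00794, adjusted p = 0.0198), and -0.17 without HTB replicate 2 (exact permutation test, adjusted p = 0.0397).

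The other 3 ratios did not pass with all libraries. Col1a2 over Col1a1 differed by 0.61 and Col3a1 over Col1a1 by 1.07 on the log2 scale (exact permutation test, adjusted p = 0.308 for both), and both passed without HTB replicate 2, at 0.91 and 1.60 (exact permutation test, adjusted p = 0.0397 for both). For Col3a1 over Col1a1, HTB replicate 5 had 77.8 reads of Col3a1 for each read of Col1a1, against 5.17 to 33.3 in the other HTB libraries and 5.22 to 16.5 in LTB. Col6a2 over Col6a1 stood at 0.482 to 0.558 reads in HTB and 0.507 to 0.545 reads in LTB, and its log2 difference was -0.03 (exact permutation test, adjusted p = 0.516).

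**Figure D4:**
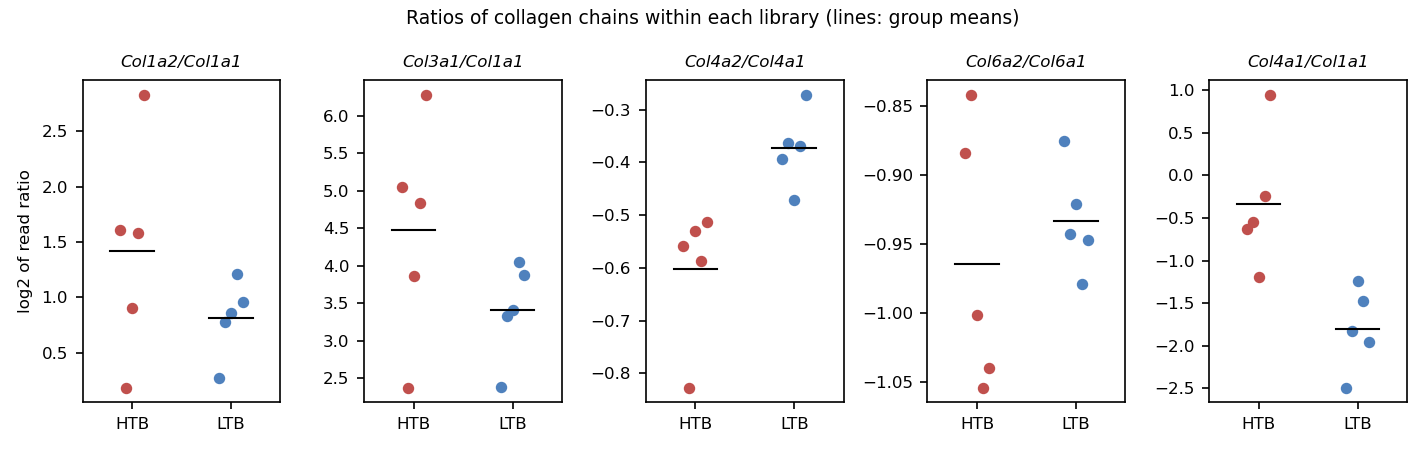
Log2 ratio of reads for 5 pairs of collagen genes in each library, HTB left of LTB, with a line at each group mean and a separate axis for each pair. HTB and LTB do not overlap for Col4a2 over Col4a1 and for Col4a1 over Col1a1.

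The members differed in which libraries were high. For 8 of the 33 tested genes (24.2%) the HTB libraries ran from high to low in the same order, replicates 2, 3, 1, 4 and 5: Col1a1, Col5a2, Col8a2, Col12a1, Col14a1, Col15a1, Col23a1 and Col27a1. That order was seen in 4.21% of all genes tested. It was picked out after the values were seen, so these shares are a description. For 6 of 33 (18.2%), Col3a1, Col4a5, Col6a1, Col6a2, Col6a4 and Col16a1, HTB replicate 2 was the lowest HTB library and LTB replicate 1 the lowest LTB library, against 17.6% of all genes tested. HTB replicate 2 was the highest of all 10 libraries for 13 of the 33 genes (39.4%), and for 20.1% of all genes tested. LTB replicate 1 was the lowest for 8 of the 33 (24.2%) and for 22.2% of all genes tested. It was the highest for 1 of the 33 (3.03%) and for 22.2% of all genes tested. Summed over the list, 6 fibroblast markers (Pdgfra, Dcn, Lum, Fap, Thy1 and Dpt) were lowest in HTB replicate 2, at 741 CPM, against 1187 to 2305 CPM in HTB replicates 1, 3, 4 and 5, and 1248 to 1785 CPM in LTB. Dcn made up most of that sum, and Fap and Dpt were higher in HTB replicate 2 than in any other library, at 9.84 and 34.2 CPM. The sum of 6 pericyte and smooth muscle markers (Rgs5, Cspg4, Notch3, Acta2, Myh11 and Pdgfrb) was 159 to 268 CPM in HTB, against 208 to 247 CPM across LTB. In each of these 2 lists 1 of 6 markers tested passed, as lower in HTB (16.7%, against 11.4% of all genes tested). Without HTB replicate 2, fibroblast markers had 1 rise and 1 fall and the pericyte and smooth muscle markers 2 falls. These are 33.3% of each list, against 22.4% of all genes tested. The part of these cells in the collagen values was not tested.

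**Figure D5:**
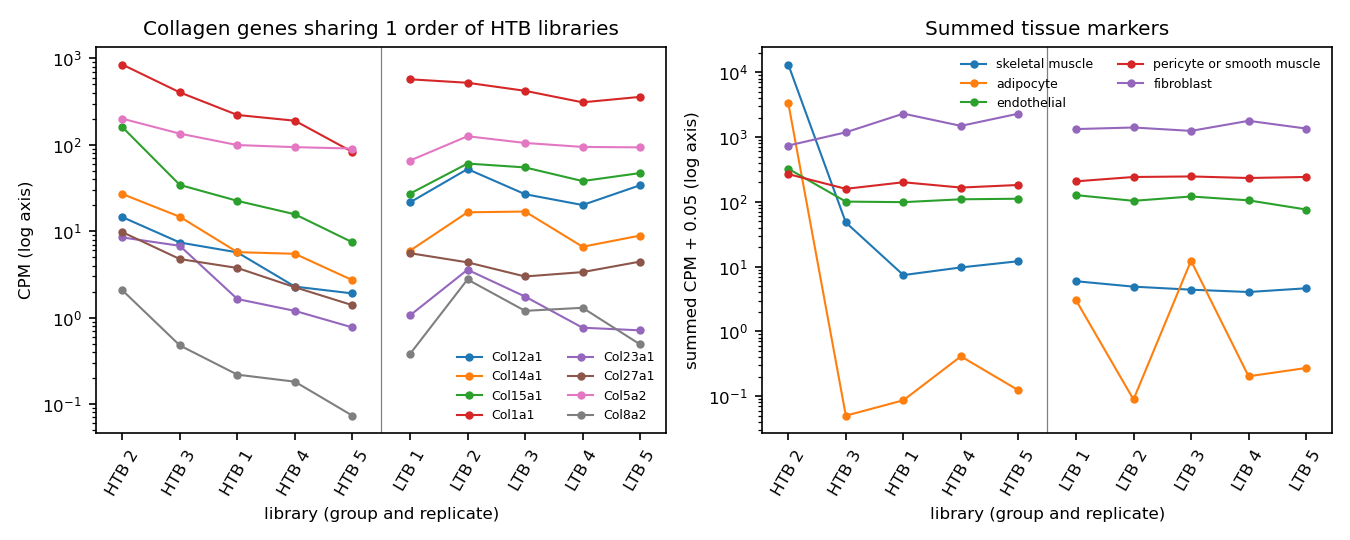
Left, CPM (log axis) of 8 collagen genes whose HTB libraries share 1 order, with HTB libraries drawn in that order and LTB libraries by number. Right, summed CPM of 5 marker lists in the same libraries, with 0.05 added for the log axis; lines join values of 1 gene or list, and muscle and adipocyte markers stand out in HTB replicate 2.

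Genes that make, process, bind or degrade collagen were then read from a list of 69, also drawn up with earlier results known, of which 62 were tested. Of these, 4 rose and 7 fell, 17.7% against the background of 11.4%, with a median log2 fold change of 0.04 (0.02 over all genes tested). Without HTB replicate 2, 7 rose and 13 fell, or 32.3%, where 22.4% of all genes tested were called. The enzymes that hydroxylate prolines and lysines held 3 of the falls and 1 rise among 12 tested. The prolyl 4-hydroxylase subunit P4ha1 averaged 169 ± 65.8 CPM in HTB and 313 ± 33.6 CPM in LTB (log2 fold change -0.89 ± 0.24, adjusted p = 0.0366), and its relative P4ha2 16.7 ± 3.68 CPM in HTB and 43.9 ± 7.70 CPM in LTB (-1.40 ± 0.17, adjusted p = 0.00124). The lysyl hydroxylase Plod3 fell by 0.40 on the log2 scale (adjusted p = 0.0272) and the prolyl 3-hydroxylase family member P3h3 rose by 0.33 (adjusted p = 0.0155). P4hb, the other subunit of prolyl 4-hydroxylase, had a log2 fold change of -0.08 ± 0.08 (adjusted p = 0.501).

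No gene of procollagen folding and secretion (9 tested), propeptide removal (6), cross-linking (5) or the fibril-bound proteoglycans (6) passed with all libraries. Without HTB replicate 2, folding and secretion had 2 rises and 1 fall, and each of the other lists 1 fall, in a fit that called 22.4% of all genes tested. The collagen chaperone Serpinh1 had 592 ± 94.7 CPM in HTB and 681 ± 63.5 CPM in LTB, and the lysyl oxidase gene Lox 6.48 to 115 CPM in HTB, against 11.1 to 41.0 CPM in LTB. Of 10 partners of the basement membrane, the laminin chain gene Lamb1 (0.34 ± 0.08, adjusted p = 0.0255) and Pxdn, the peroxidase that forms sulfilimine cross-links in type IV collagen (0.37 ± 0.08, adjusted p = 0.0174), rose and the laminin chain gene Lama5 fell (-0.43 ± 0.12, adjusted p = 0.039). Pxdn had 157, 175, 152, 143 and 151 CPM in HTB, against 101, 130.1, 127, 126 and 118 CPM in LTB, with no overlap.

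Among 8 tested collagen receptors, the integrin gene Itga10, whose product binds collagen with the beta 1 chain, rose to 10.3 ± 4.05 CPM in HTB, against 3.98 ± 0.629 CPM in LTB (log2 fold change 1.38 ± 0.27, adjusted p = 0.0109). The receptor kinase gene Ddr1 fell by 0.35 (adjusted p = 0.0279) and Lair1, an inhibitory collagen receptor of leukocytes, by 0.80 on the log2 scale (adjusted p = 0.0392). Of 6 leukocyte markers, Ptprc, Itgam and Cd68 also fell and Adgre1, Csf1r and Cd3e did not pass. Their sum was 182 to 315 CPM in HTB, against 305 to 693 CPM across LTB, and its part in the Lair1 value was not tested. Of 6 degrading enzymes the collagenase gene Mmp13 fell, to 4.81, 1.04, 2.56, 5.11 and 5.49 CPM in HTB, against 55.1, 6.54, 15.3, 28.5 and 32.7 CPM in LTB (log2 fold change -2.86 ± 0.58, adjusted p = 0.0126).

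In the authors' deposited table, 6 of the 43 collagen genes passed a q of 0.05, or 14.0%, against 14.5% of the 18166 genes with a q there (6.86% higher and 7.66% lower). HTB was lower for 2 of them, Col12a1 and Col6a3, with log2 fold changes of -2.28 and -0.46. It was higher for 4, Col18a1, Col5a1, Col6a1 and Col6a2, with log2 fold changes of 0.28, 0.34, 0.58 and 0.54. Col5a1, Col6a1 and Col6a2 did not pass the edgeR test with all libraries, but passed DESeq2's Wald test on the same libraries.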

How the data were processed

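Bulk RNA-seq of whole MC38 tumours gave 10 libraries, 5 HTB and 5 LTB, grouped by the submitters' labels. The deposited table holds estimated counts per gene on GRCm38 (mm10, per the submitters' processing notes); aligner and counter: not given in the sources used here. The authors' deposited table also holds log2 fold changes and p-values and q-values of their own comparison. Estimated counts were rounded to whole numbers; 1 line without a gene was left out. Genes were filtered with filterByExpr, scaled by TMM and tested with edgeR 4.0.16 (R 4.3.3) by the quasi-likelihood test, HTB against LTB, with Benjamini-Hochberg adjustment over all genes tested and a threshold of 0.05. CPM used TMM-scaled totals, and level per kb used the longest GENCODE transcript matched to RefSeq. Limma 3.58.1 and DESeq2 1.42.0 served as alternatives, and the test was tried on simulated data. Named in full were genes that passed or averaged at least 20 CPM. Outside this rule, library values were also given for Col4a5 and Col24a1, which passed without HTB replicate 2, and for Col23a1. The member rule uses symbols alone, but collagens as a topic and the gene lists were chosen with earlier results of these data known. Promoter windows came from RefSeq by symbol.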

Additional observations from a re-analysis of the deposited data

Results flagged for a closer look

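The gap to the nearest library was tested against the range of the group in 52 groups of values, HTB and LTB counted apart. It flagged 5, all of them HTB groups in which replicate 2 lay far from the others. Chance gives about 1 in 20 groups when groups are independent. Most of these flags rest on Col4a1 and Col4a2, and LTB groups cannot flag this library, so that rate does not measure the 5 flags. Col4a1 was 582 CPM in HTB replicate 2, while HTB replicates 1, 3, 4 and 5 had 144 to 176 CPM. Col4a2 was 328 CPM and 97.4 to 122 CPM in the others. Col15a1 was 160.3 CPM and 7.44 to 34.3 CPM in the others. The summed type IV level was 923 CPM and 267 to 317 CPM in the others, and the log2 ratio of Col4a2 to Col4a1 was -0.83 and -0.59 to -0.51 in the others. The skeletal muscle and adipocyte markers were highest in the same library, and their part in these values was not tested.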

How the results depend on the processing

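The number of collagen genes called moved with the processing. With all libraries 1 was higher and 2 lower in HTB. The counts were 0 higher with upper-quartile factors and with a minimum of 1 CPM in 5 libraries, 0 higher and 1 lower with no filter on low counts, 4 higher with DESeq2's Wald test, 4 higher and 7 lower with limma voom and quality weights, and 4 higher and 5 lower without HTB replicate 2 and LTB replicate 1. Leaving out 1 library at a time gave 0 to 4 higher and 0 to 5 lower. The share of all genes called moved too, from 11.4% in the main fit. It was 11.5% with upper-quartile factors and with the minimum of 1 CPM, and 7.01% with no filter. The Wald test called 7.82% higher and 10.2% lower, and quality weights called 26.7%. Leaving out a single library gave 22.4% for HTB replicate 2 and 5.42% to 9.36% for any other. Without both HTB replicate 2 and LTB replicate 1 it was 21.6%.

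With the replicate number as a block, 0 collagen genes were higher and 1 lower, where 7.21% of all genes tested were called (1.64% higher and 5.57% lower). In that fit Col15a1 turned to -0.68 on the log2 scale (adjusted p = 0.458). The replicate numbers did not pair the libraries: correlations of deviations lay between -0.0175 and 0.105, and 2 of 10 libraries correlated best with their own number.

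Leaving out libraries gave Col15a1 log2 fold changes up to 0.35 and as low as -1.33, Col5a3 between -0.49 and 0.07 and Col7a1 between -0.00995 and 0.45. Col15a1 was also below 0 with limma voom (-0.73), with quality weights (-1.30), without HTB replicate 2 (-1.19), without LTB replicate 1 (-0.07) and without both (-1.33). Col5a3 was above 0 without HTB replicate 4 (0.0715), HTB replicate 5 (0.02) or LTB replicate 2 (0.05), and Col7a1 was -0.00995 without HTB replicate 2 and LTB replicate 1. Without a single library, Col1a2 over Col1a1 differed by 0.25 to 0.91 and Col3a1 over Col1a1 by 0.62 to 1.6, and both passed without HTB replicate 2. Col4a2 over Col4a1 (-0.25 to -0.17) and Col4a1 over Col1a1 (1.15 to 1.69) passed in each of these 10 runs. Without both HTB replicate 2 and LTB replicate 1 they were -0.18 and 1.35 (exact permutation test, adjusted p = 0.0714 for both), where 70 splits allow no p below 0.0286. The causes were not tested. Genes under 1 CPM rest on few reads, and intervals between libraries cover only these libraries.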
